A study of Mus musculus with 4 samples.

Results

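Nr4a1, Nr4a2 and Nr4a3, the 3 orphan nuclear receptors of the Nr4a family, were followed in brain RNA of tau+/+ and tau-/- mice with and without a PTZ-induced seizure. They were taken by gene symbol from the deposited gene table, where they are 3 of 230 genes, and each had a value in all 4 libraries. PTZ (pentylenetetrazole) blocks inhibitory GABA-A receptors and provokes excitotoxic seizures. The libraries came from C57Bl/6 mice aged 6 weeks. Tau+/+ mice carry the wild-type gene for the microtubule-associated protein tau, and in tau-/- mice a GFP cDNA knocked into the first exon of Mapt disrupts it in every tissue. In each genotype 1 library was made after vehicle (sham in the labels) and 1 library after 50 mg/kg PTZ given i.p., with RNA taken 1 h later. Seizure scores of the PTZ mice were matched by selection, and the sources used here do not say how many mice were pooled, if any. Sample labels name brain as the source but also speak of primary neurons, whereas the Methods describe injected mice. None of the 13 neuronal, astrocytic, oligodendrocytic and microglial markers examined is among the 230 genes, so the tissue could not be checked on them. All 8 choroid plexus epithelium markers are among them, with Ttr, a thyroid hormone carrier made by that epithelium, at 1504 FPKM in tau+/+ vehicle. The marker lists were chosen with earlier results of these data known, so the presence of all 8 is no check of the tissue.

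Levels are given in FPKM, the number of sequenced fragments scaled by transcript length and by sequencing depth, which allows different genes to be compared within a library. Each condition has 1 library, so no replicate error and no test can be given, and FPKM do not tell how deeply a library was sequenced. Every fold below therefore compares single libraries, and a change is called past 1.5-fold, the study's threshold. The 230 genes were selected by the study for a change in tau+/+ after PTZ and a missing or milder change in tau-/-, on these same libraries, so the responses of the Nr4a genes are a description and not independent evidence of a difference between genotypes.

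Nr4a receptors are transcription factors with a zinc finger DNA-binding domain and a ligand-binding fold whose pocket is filled by bulky side chains. No natural ligand is needed for their activity, which is set largely by how much receptor a cell makes. In neurons they are immediate-early genes (IEGs), transcribed within minutes of calcium entry through pathways that include CREB (a factor that binds the cAMP response element, CRE), MEF2 and SRF. The proteins bind a DNA element called NBRE as monomers. Nr4a1 and Nr4a2 can also pair with retinoid X receptors. Nr4a2 is best known for its role in the development and upkeep of midbrain dopamine neurons, and Nr4a1 was first found as a gene induced by nerve growth factor.

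The upstream sequences are shown because CREB sites are the best known activity input of the family. Capitals mark CRE half-sites, TGACG or its reverse complement CGTCA. The sequences are from RefSeq on GRCm38.p6, read 5′ to 3′ on the gene's strand and limited to bases outside annotated exons of the gene. They cover chr15:101266596-101266845 (plus strand) for Nr4a1, which is upstream of its RefSeq start site but within an intron of a longer annotated transcript, chr2:57124004-57124253 (minus strand) for Nr4a2 and chr4:48045055-48045152 (plus strand) for Nr4a3.
Nr4a1: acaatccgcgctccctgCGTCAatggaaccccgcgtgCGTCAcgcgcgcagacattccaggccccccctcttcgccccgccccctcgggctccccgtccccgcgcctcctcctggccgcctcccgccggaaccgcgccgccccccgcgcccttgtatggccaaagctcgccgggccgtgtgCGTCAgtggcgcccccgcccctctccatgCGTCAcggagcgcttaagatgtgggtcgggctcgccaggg
Nr4a2: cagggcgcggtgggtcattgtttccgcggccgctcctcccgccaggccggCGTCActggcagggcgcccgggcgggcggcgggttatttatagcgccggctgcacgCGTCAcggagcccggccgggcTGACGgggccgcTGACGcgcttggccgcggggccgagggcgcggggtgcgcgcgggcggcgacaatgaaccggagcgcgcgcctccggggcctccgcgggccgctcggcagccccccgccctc
Nr4a3: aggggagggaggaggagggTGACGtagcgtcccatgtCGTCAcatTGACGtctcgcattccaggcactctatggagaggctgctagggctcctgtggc

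Each of the 3 genes held 4 CRE half-sites within the 250 bases before its RefSeq start site. Among 32851 promoter windows of the same length in the mouse genome, 5836 (17.8%) held at least 1 half-site and 45 (0.137%) held 4 or more. These windows were rich in G and C, at 74.4% for Nr4a1, 80.0% for Nr4a2 and 63.6% for Nr4a3, against a median of 52.4% over all windows. Among the 9178 windows with at least 60% G and C, 0.37% held 4 or more half-sites. In Nr4a1 the half-sites began at -233, -213, -69 and -40, and each was part of the longer run TGCGTCA, which was present in 1.75% of all windows and was searched for after the sequence had been seen. In Nr4a2 they began at -200, -144, -123 and -111, and in Nr4a3 at -231, -213, -205 and -147. The last half-site of Nr4a3 lies in an exon of a longer transcript and is not in the printed stretch. None of the 3 windows held the palindrome TGACGTCA, in which both half-site forms overlap (1.55% of all windows), a CArG box, which SRF binds (1.47%), the NBRE AAAGGTCA (1.34%) or TATAAA on the gene's strand (7.59%). Apart from TATAAA, all motifs were searched on both strands. The Nr4a2 window held a MEF2 site, as did 2.92% of all windows, at -167. A match is a description of the letters and does not show that a factor binds there. The same comparison within the 230 genes was not made, since only 175 of them (76.1%) had a promoter window.

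**Figure D1:**
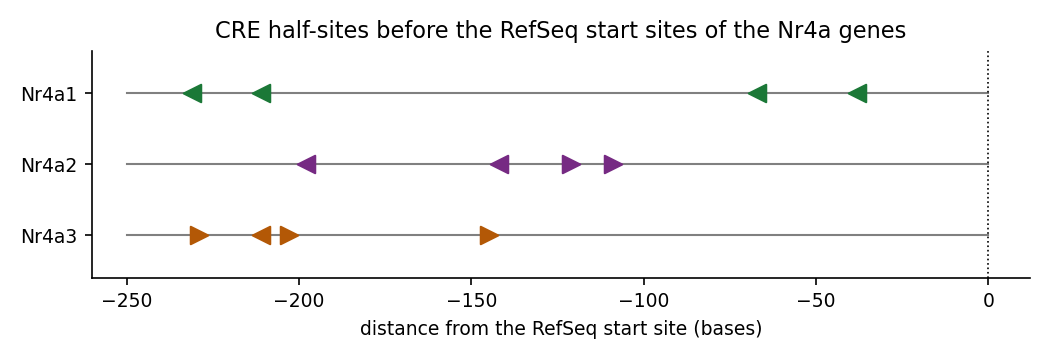
Positions of CRE half-sites before the RefSeq start sites of the Nr4a genes. The horizontal axis is the distance in bases from the RefSeq start site (dotted line), each row is 1 gene, and a triangle is 1 half-site, pointing right for TGACG and left for CGTCA on the gene's strand; each gene has 4.

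Nr4a1 lies on chromosome 15 of GRCm38 from 101254269 to 101274795, Nr4a2 on chromosome 2 from 57106830 to 57124003 and Nr4a3 on chromosome 4 from 48045153 to 48086447. No other gene annotated in GENCODE M21 overlaps any of them. All 3 have 8 exons in the coding transcript examined, with 601 codons in Nr4a1, 598 in Nr4a2 and 627 in Nr4a3. The 3′ untranslated region differed more, with 543 bases in Nr4a1, 1326 in Nr4a2 and 3093 in Nr4a3. The pentamer ATTTA, the core of AU-rich elements found in many short-lived mRNAs, occurred 3, 3 and 5 times in it. Per kilobase this was 5.52 in Nr4a1, 2.26 in Nr4a2 and 1.62 in Nr4a3, against a median of 1.31 over 19080 protein-coding genes. A density at or above that of Nr4a1 was found in 6.17% of all genes and in 0 of the 20 other inducible transcription factors in the table, whereas 32.7% of all genes and 40% of those 20 reached that of Nr4a2, and 43.9% and 50% that of Nr4a3. The median was 1.68 per kilobase over the 156 listed genes that were higher after PTZ in tau+/+ and had such a region, just above Nr4a3.

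The tau-/- PTZ library stood apart in markers of choroid plexus epithelium. The 8 markers summed to 1550 FPKM (vehicle) and 2572 FPKM (PTZ) in tau+/+, and 1140 FPKM (vehicle) and 36.5 FPKM (PTZ) in tau-/-. All 8 were over 1.5-fold lower in tau-/- PTZ than in each vehicle library, although none was listed at 0. The 5 markers of meninges and perivascular fibroblasts summed to 15.6, 26.1, 15.7 and 8.0 FPKM. The order is tau+/+ vehicle, tau+/+ PTZ, tau-/- vehicle and tau-/- PTZ. Of 4 endothelial markers examined, only Apold1 is in the table, with 0.633, 5.70, 0.94 and 3.01 FPKM in the same order. Apold1 was higher after PTZ in both genotypes (log2 of 3.17 in tau+/+ and 1.68 in tau-/-). Whether this was a response to PTZ or a change in endothelial content was not tested. Its values are thus not read as endothelial content. In bulk tissue, fewer cells of a type and less RNA per cell cannot be told apart. In tau+/+ PTZ, all 8 choroid plexus markers and all 5 of meninges and perivascular fibroblasts were over 1.5-fold higher than in tau+/+ vehicle. Every listed gene passed 1.5-fold in that comparison by selection. The part of tissue makeup in the Nr4a values of either PTZ library was not tested. The comparison of the vehicle libraries below does not use the PTZ libraries, but the vehicle libraries differed in these markers as well. In tau-/- vehicle, 4 of the 8 choroid plexus markers were over 1.5-fold lower than in tau+/+ vehicle. The same held for 1 of the 5 markers of meninges and perivascular fibroblasts, and 0 markers of either list were over 1.5-fold higher. Its part in the Nr4a vehicle difference was not tested.

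Nr4a1, the member with the largest range, had 16.3 FPKM (vehicle) and 178 FPKM (PTZ) in tau+/+, and 33.7 FPKM (vehicle) and 42.9 FPKM (PTZ) in tau-/-. The tau+/+ PTZ library stood far above the other 3, and tau+/+ vehicle was the lowest. Nr4a1 was 10.9-fold higher after PTZ in tau+/+ (log2 of 3.45) and 1.27-fold higher in tau-/- (log2 of 0.35). Its increase was 162 FPKM in tau+/+ and 9.20 FPKM in tau-/-, so that the tau-/- increase was 5.68% of the tau+/+ increase. After PTZ, its level was 4.15-fold lower in tau-/- than in tau+/+.

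Nr4a2 had 21.9 FPKM (vehicle) and 52.7 FPKM (PTZ) in tau+/+, and 26.2 FPKM (vehicle) and 26.8 FPKM (PTZ) in tau-/-. Again tau+/+ PTZ was the highest library, and the tau-/- pair was almost level. Nr4a2 was 2.41-fold higher after PTZ in tau+/+ (log2 of 1.27) and 1.02-fold higher in tau-/- (log2 of 0.03). The increase of 30.8 FPKM in tau+/+ compared with 0.594 FPKM in tau-/-, a share of 1.93%.

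Nr4a3 had 14.5 FPKM (vehicle) and 46.3 FPKM (PTZ) in tau+/+, and 23.9 FPKM (vehicle) and 25.7 FPKM (PTZ) in tau-/-. The tau-/- libraries lay between the tau+/+ libraries, and closer to tau+/+ vehicle. Nr4a3 was 3.18-fold higher after PTZ in tau+/+ (log2 of 1.67) and 1.07-fold higher in tau-/- (log2 of 0.10). Its FPKM increase in tau-/- was 5.61% of that in tau+/+. After PTZ, Nr4a2 and Nr4a3 were 1.97-fold and 1.80-fold lower in tau-/- than in tau+/+.

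**Figure D2:**
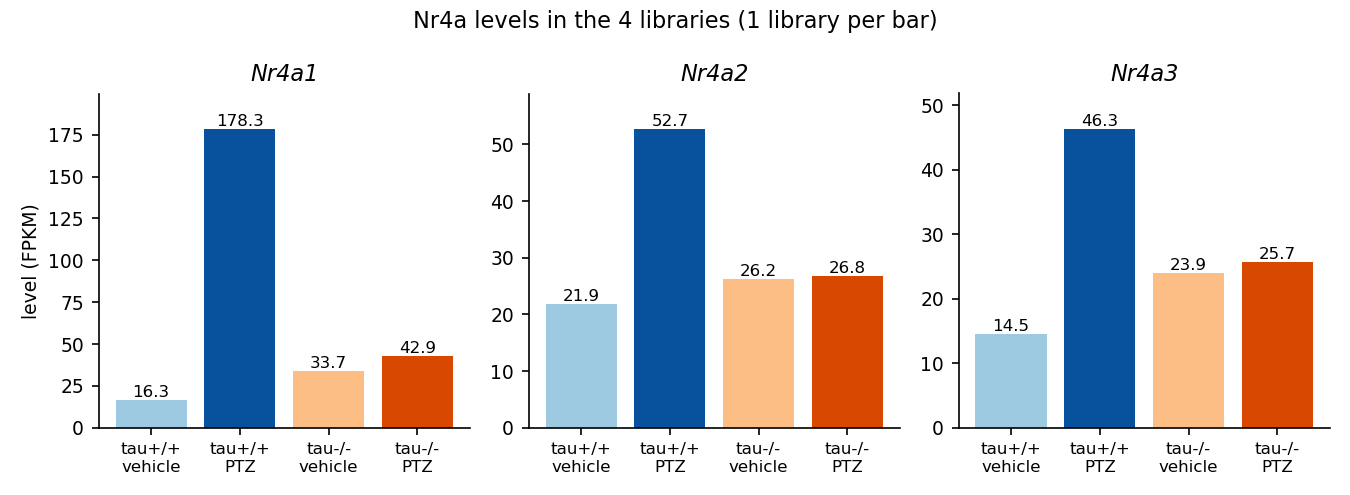
Levels of Nr4a1, Nr4a2 and Nr4a3 in FPKM (vertical axes, each from 0 with its own scale) in the 4 libraries; each bar is 1 library, so there is no error bar. The tau+/+ PTZ bar is the highest in every panel, at 178, 52.7 and 46.3 FPKM, while both tau-/- bars stay at or below 42.9 FPKM.

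All 3 members passed 1.5-fold upward after PTZ in tau+/+, where 76.1% of the 230 genes did so and the other 55 were lower by over 1.5-fold. In tau-/-, 0 of the 3 members passed 1.5-fold in either direction. Of the 230 genes, 8.7% did so upward and 16.5% downward, so most of them stayed within 1.5-fold as well. The table was selected for a missing or milder change in tau-/-, so this is no trait of the Nr4a genes. In the comparison of tau-/- PTZ with tau+/+ PTZ, all 3 were lower by over 1.5-fold, as were 139 of the 230 genes (60.4%). All 139 were among the 175 genes that were higher after PTZ in tau+/+. The log2 difference between the tau-/- and tau+/+ responses was -3.10 for Nr4a1, -1.24 for Nr4a2 and -1.57 for Nr4a3. Over the whole table the log2 responses had medians of 0.80 (tau+/+) and -0.10 (tau-/-). By size of the tau+/+ response Nr4a1 was in place 8 of 230, Nr4a3 in place 45 and Nr4a2 in place 67. In tau-/- they held places 41, 70 and 85. The order Nr4a1, Nr4a3, Nr4a2 was thus the same in both genotypes, but in tau-/- the members spanned only 0.32 on the log2 scale, against 2.18 in tau+/+, and without replicates such a span cannot be told from error.

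**Figure D3:**
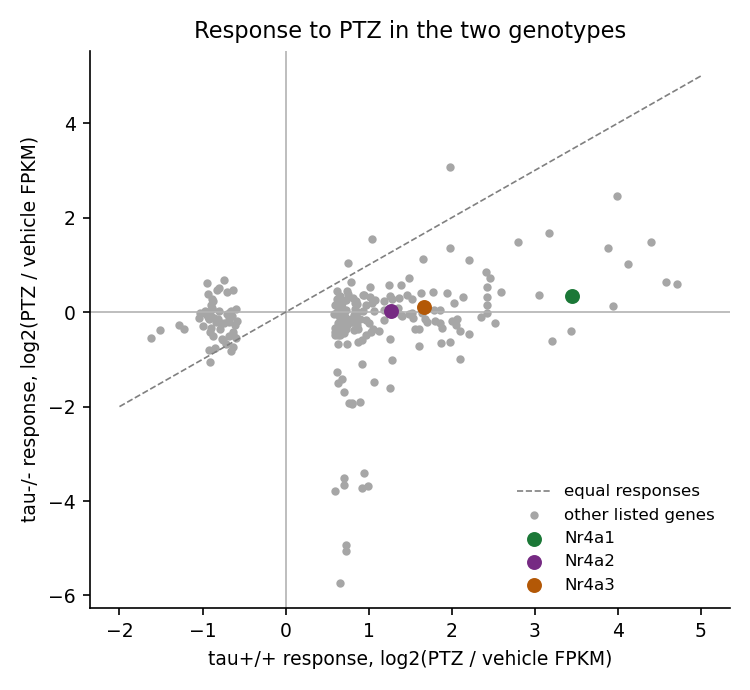
Response to PTZ in tau+/+ (horizontal axis) and tau-/- (vertical axis), both as log2 of PTZ over vehicle FPKM, for 229 of the 230 genes (Defb11, listed at 0 in tau-/- PTZ, has no log2 value). Gray points are other genes and the dashed line marks equal responses; Nr4a1, Nr4a2 and Nr4a3 lie at 3.45, 1.27 and 1.67 on the horizontal axis and between 0.03 and 0.35 on the vertical axis.

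Before any seizure, Nr4a1 and Nr4a3 were already higher in tau-/-. The vehicle libraries differed 2.07-fold for Nr4a1 (33.7 against 16.3 FPKM, log2 of 1.05), 1.65-fold for Nr4a3 (23.9 against 14.5 FPKM, log2 of 0.72) and 1.20-fold for Nr4a2 (26.2 against 21.9 FPKM, log2 of 0.26). Thus 2 of the 3 members passed 1.5-fold, where 32 of the 230 genes (13.9%) did. All 32 were among the 175 genes that were higher after PTZ in tau+/+. Of those 175, 62 had a mean of at least 10 FPKM, the members included, and 13 of the 62 passed. Nr4a1 and Nr4a3 held places 8 and 17 by the vehicle difference. Over the whole table this log2 difference had a median of 0.11. This comparison shares the tau+/+ vehicle library with the tau+/+ response on which the genes were selected, and a low value in that library raises both. The vehicle difference equaled 10.8% of the tau+/+ increase in FPKM for Nr4a1, 14.1% for Nr4a2 and 29.6% for Nr4a3. Whether vehicle-treated tau-/- brain has more Nr4a mRNA, or these 2 vehicle libraries differ for another reason, cannot be told apart with 1 library each.

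The choice of baseline therefore changes how the tau-/- libraries read. Set against tau+/+ vehicle, tau-/- PTZ was 2.63-fold higher for Nr4a1 (log2 of 1.40), 1.77-fold higher for Nr4a3 (log2 of 0.82) and 1.23-fold higher for Nr4a2 (log2 of 0.29). By this measure 2 of the 3 members passed 1.5-fold upward, against 34 of the 230 genes (14.8%), and Nr4a1 held place 5. All 34 were among the 175 genes that were higher after PTZ in tau+/+. The excess of tau-/- PTZ over tau+/+ vehicle made up 16.4% of the tau+/+ increase for Nr4a1, 16.0% for Nr4a2 and 35.2% for Nr4a3. The order of the libraries was the same for each member, with tau+/+ PTZ followed by tau-/- PTZ, tau-/- vehicle and tau+/+ vehicle. This order was found in 49 of the 175 genes (28.0%) that were higher after PTZ in tau+/+.

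The makeup of the family also differed between libraries. Summed over the 3 genes, the level was 52.7 FPKM (vehicle) and 277 FPKM (PTZ) in tau+/+, and 83.8 FPKM (vehicle) and 95.4 FPKM (PTZ) in tau-/-. The sum was 5.26-fold higher after PTZ in tau+/+ and 1.14-fold higher in tau-/-. Nr4a2 was the most abundant member in tau+/+ vehicle, with 41.5% of the sum against 30.9% for Nr4a1 and 27.6% for Nr4a3. In tau+/+ PTZ, Nr4a1 made up 64.3% of the sum and stood 3.38-fold above Nr4a2 and 3.85-fold above Nr4a3. In the tau-/- libraries Nr4a1 led as well, but with 40.2% after vehicle and 45.0% after PTZ. Nr4a3 was the least abundant member in all 4 libraries, although in tau-/- PTZ it was close to Nr4a2, at a ratio of 0.96. Among the 230 genes, Nr4a1 moved from place 27 by level in tau+/+ vehicle to place 4 in tau+/+ PTZ, and in tau-/- from place 11 to place 7.

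**Figure D4:**
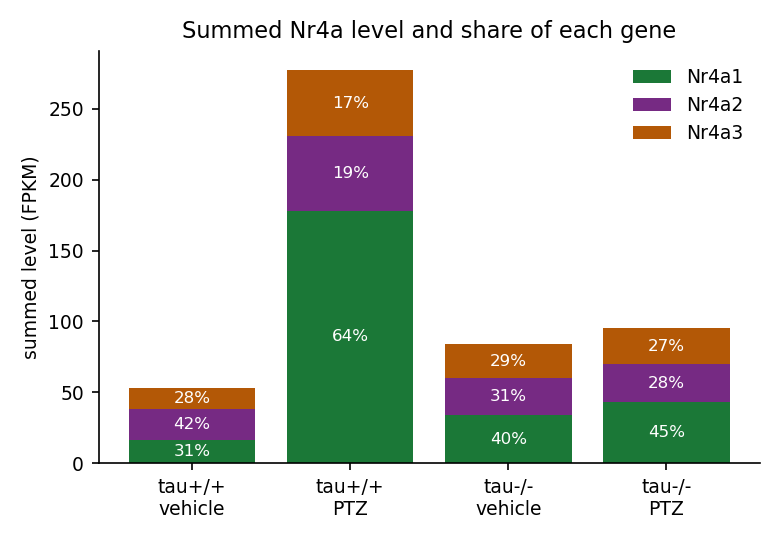
Summed level of the 3 Nr4a genes (vertical axis, FPKM from 0) in each of the 4 libraries, stacked by gene with the share of each gene written in percent. The sum stands at 277 FPKM in tau+/+ PTZ, of which 64% is Nr4a1, and at 95.4 FPKM or less in the other libraries.

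Other inducible transcription factors give the setting for these values. Of 24 listed, 20 are among the 230 genes. All 20 passed 1.5-fold upward in tau+/+, where all 230 passed by selection, 76.1% of them upward. The median log2 response of the 20 was 1.91. Fosb, an AP-1 subunit, had the largest response (log2 of 4.72), and Srf, the serum response factor, the smallest (log2 of 0.63). In tau-/- their median log2 response was 0.36, with 6 of 20 past 1.5-fold upward, 1 downward and 13 within. Their median log2 vehicle difference was 0.45, and 6 of the 20 were over 1.5-fold higher in tau-/- vehicle. This compares with 32 of the 230 genes (13.9%), all among the 175 that were higher after PTZ in tau+/+. When the Nr4a genes were ranked with these 20, Nr4a1 was in place 6 of 23 by tau+/+ response, Nr4a3 in place 14 and Nr4a2 in place 18. By tau-/- response they held places 12, 15 and 16, so none was among the 6 that passed 1.5-fold. By the vehicle difference, Nr4a1 was in place 3, Nr4a3 in place 5 and Nr4a2 in place 16.

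A second list held 18 genes known to respond to CREB, without the Nr4a genes, and 17 of them are in the table. Log2 responses of the 17 had a median of 2.14 in tau+/+ and one of 0.24 in tau-/-. In tau-/-, 6 of 17 passed 1.5-fold upward, against 8.7% of the 230 genes, and 1 downward, against 16.5%. Fosb again had the largest tau+/+ response, and Bdnf, a neurotrophin with activity-driven promoters, the smallest. Their median log2 vehicle difference was 0.47. Both lists were written with the table's values known, and they share several genes.

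Of 13 partners and reported targets of the Nr4a receptors, among them the retinoid X receptors and tyrosine hydroxylase, only Bdnf is in the table. A gene that responded alike in both genotypes would not be in this table. Absence from it therefore does not show that a target or nuclear receptor had no response. Bdnf had 13.2 FPKM (vehicle) and 26.5 FPKM (PTZ) in tau+/+, and 14.3 FPKM (vehicle) and 12.2 FPKM (PTZ) in tau-/-. The only other nuclear receptor listed was Rorb, a retinoid-related orphan receptor of cortical layers and retina, which went the other way. Its levels were 2.58 FPKM (vehicle) and 1.71 FPKM (PTZ) in tau+/+, and 2.13 FPKM (vehicle) and 1.88 FPKM (PTZ) in tau-/-.

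The genes most like each member over the 4 libraries were found by the Euclidean distance between log2 FPKM values centered on each gene's mean, among 228 other genes. Nearest to Nr4a1 were Junb, an AP-1 subunit, at a distance of 0.49, the zinc finger factors Egr4 (0.55) and Egr2 (0.62), Gal, which encodes the neuropeptide galanin (0.75), and Gm129 (0.77). Junb, the closest, was higher still, at 29.8, 248, 40.3 and 51.9 FPKM in tau+/+ vehicle, tau+/+ PTZ, tau-/- vehicle and tau-/- PTZ. Gal was far less abundant, at 0.378 FPKM in tau+/+ vehicle.

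Nr4a2 had much closer neighbors, namely Siah2, a ubiquitin ligase, at 0.056, Arl5b, a small GTPase, at 0.076, Coq10b, a coenzyme Q binding protein, at 0.16, Plk2, an activity-induced kinase, at 0.17, and Lgals3, a galectin, at 0.18. Distances scale with the size of the response, so they are smaller for a gene of small range. Plk2 was the most abundant of these, at 63.4, 133, 75.4 and 76.3 FPKM in the same order of libraries. For Nr4a3 the nearest gene was Per1, a clock gene also induced by CREB, at 0.15, with 11.1, 32.0, 19.1 and 18.9 FPKM. Next came Atoh8 (0.27), a basic helix-loop-helix factor, the unnamed transcript 1600002K03Rik (0.28), Csrnp1 (0.29) and LOC100504703 (0.31).

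The members were not each other's nearest genes. Seen from Nr4a1, Nr4a3 was in place 33 and Nr4a2 in place 58 of 228, at distances of 1.34 and 1.57. Seen from Nr4a3, Nr4a2 was in place 16, at a distance of 0.41. In order of libraries the 3 genes were alike, and they differed in size.

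**Figure D5:**
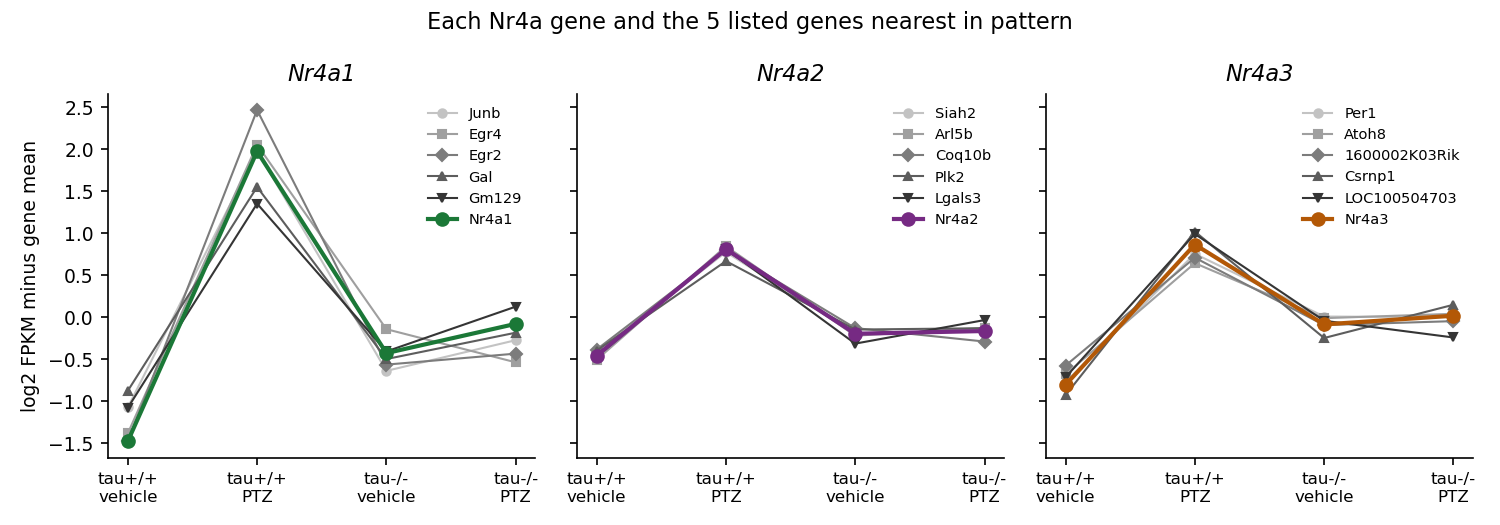
Pattern of each Nr4a gene (colored line) and of the 5 listed genes nearest to it (gray lines) over the 4 libraries, as log2 FPKM minus the gene's own mean (vertical axis); each point is 1 library. In all 3 panels the member peaks in tau+/+ PTZ and is lowest in tau+/+ vehicle, with the widest spread, 3.45 on the log2 scale, for Nr4a1.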

How the data were processed

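RNA-Seq of 4 brain libraries, 1 per genotype and treatment, was used. The authors aligned read pairs to GRCm38/mm10 with TopHat2 2.03 and Bowtie2 2.0.0.6, allowing 2 mismatches, and ran Cuffdiff 2.01, whose FPKM values were deposited. The counting annotation is not given in the sources used here. The Methods state only a minimum of aligned read pairs for all libraries, and FPKM do not hold the depth of each, so the precision of a single value is unknown. The deposited table holds 230 genes, the study's set lacking a response (p below 0.05 and over 1.5-fold in tau+/+, missing or milder in tau-/-). Its 4 other columns hold the authors' log2 fold changes and p-values, which were not used.

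Samples were grouped by the genotype and treatment in their labels. Log2 ratios were computed from FPKM without a pseudocount, with the vehicle library of the same genotype as baseline, and no test was made. Alternatives were tau+/+ vehicle as baseline, pseudocounts of 0.1 and 1 FPKM, centering on the table's median, a 2-fold threshold and a mean of at least 1 or 5 FPKM. The table without choroid plexus and meninges genes was added after the data had been seen. The genes named are the 3 members, the 5 nearest in pattern to each, the extremes of the 2 gene lists, listed partners, targets and other nuclear receptors, and Ttr. Apold1, the 1 endothelial marker in the table, was named after its values had been seen. The members and lists were chosen with earlier results of these data known.

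Promoter windows of RefSeq (GRCm38.p6, 250 bases before the start) matched all 3 members, and gene models and transcripts were those of GENCODE M21 on GRCm38, using the transcript with the longest complete coding sequence of a gene and 3′ untranslated regions of at least 100 bases. Functions were tested on simulated data (5 of 5 checks passed). Python 3.11.15, numpy 2.4.6, pandas 2.3.3 and matplotlib 3.10.9 were used.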

Additional observations from a re-analysis of the deposited data

Results flagged for a closer look

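Of the 23 genes chosen by the naming rule, 7 were higher after PTZ in one genotype and lower in the other, and none of these was an Nr4a gene. Over the whole table this held for 114 of 230 genes (49.6%), so that it is common among these selected genes. The differences between genotypes were not tested, since each condition has 1 library, and all 7 genes were in the table for a missing or milder change in tau-/-. The log2 responses in tau-/- were -0.39 for Egr4, -0.16 for Coq10b, -0.0076 for Per1, -0.20 for LOC100504703, -0.24 for Srf, -0.22 for Bdnf and -5.07 for Ttr. The corresponding tau+/+ responses were 3.44, 1.18, 1.53, 1.71, 0.63, 1.01 and 0.73. The other 6 genes besides Ttr stayed within 1.5-fold of vehicle in tau-/-.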

How the results depend on the processing

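With 1 library per condition, no replicate could be left out, and depth sets a limit on low FPKM values that could not be quantified. Of 99 recomputed values, 67 stayed within 0.1 on the log2 scale (counts, shares and ranks within 1.5 times), 32 moved and 0 changed sign. Only log2 values past 1.5-fold were checked for a change of sign. Counts and ranks have no sign, and a pseudocount cannot change the sign of a log2 ratio. The 0 was thus largely fixed in advance. The tau+/+ response and PTZ difference of the 3 Nr4a genes stayed within 0.1 under both pseudocounts. With tau+/+ vehicle as baseline, the log2 tau-/- response was 1.40 for Nr4a1, 0.29 for Nr4a2 and 0.82 for Nr4a3, the difference between responses -2.05, -0.98 and -0.85, and the share of the tau+/+ increase 16.4%, 16.0% and 35.2%. The median tau-/- response was then 0.68 for inducible transcription factors and 0.77 for CREB-responsive genes. Relative to the median of the table, the tau-/- response was 0.45, 0.14 and 0.21 and the vehicle difference 0.94, 0.15 and 0.61. With a pseudocount of 1 FPKM, the medians of the inducible transcription factors were 1.55 for the tau+/+ response and -1.15 for the PTZ difference, those of the CREB-responsive genes 2.0 and -1.15, and Nr4a1 held place 4 by vehicle difference. Counts of genes past the threshold, in the order tau+/+ response, tau-/- response, vehicle difference, PTZ difference (lower) and tau-/- PTZ over tau+/+ vehicle, were 175, 20, 32, 139 and 34 as reported, 85, 12, 10, 85 and 18 at a threshold of 2-fold, and 100, 9, 16, 79 and 19 for the 102 genes with a mean of at least 5 FPKM, which follows from fewer genes or a higher bar. At 2-fold, Nr4a3 no longer passed in the vehicle difference or in tau-/- PTZ over tau+/+ vehicle, and Nr4a2 and Nr4a3 no longer passed in the PTZ difference. Counts with a mean of at least 1 FPKM, or without the choroid plexus and meninges genes, stayed within 1.5 times.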
